A study of Mus musculus with 76 samples.

Results

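Expression of 8 matrix metalloproteinases (Mmp2, Mmp3, Mmp9, Mmp10, Mmp11, Mmp12, Mmp13 and Mmp14) and 2 of their tissue inhibitors (Timp1 and Timp3) was followed across 76 mouse tumour arrays. These 10 genes were taken by symbol from 18194 genes on the array, each through the probe set whose mean was highest, and all 10 passed the filter on low values. The tumours, of C57BL/6 mice, came from a directed complementation model. A mutant form of the receptor HER2, switched on by doxycycline, drove the starting tumours, and after doxycycline was withdrawn 1 of 13 genes was introduced in its place. The groups were named by that gene: MAP3K11, MAP3K7, ErbB3, FAK1, FGFR2aIIIb, FGFR2aIIIc, FGFR3, PIP5K1B, RON+MSP, RONd160, RSK2, TNK2 and HER2. FAK1 had 4 arrays and every other group had 6. The 6 MAP3K11 arrays are labelled with cachexia, the wasting of the body in cancer, and the other 70 without it, so the label and the introduced gene cannot be told apart. Each array carries a label T1, T2 or T3 that the labels do not define. The arrays are called biological replicates, but the animals and tumour lines behind them are not given, so p-values rest on the spread from array to array, which may be technical in part, and an introduced gene cannot be told apart from its tumour line.

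Matrix metalloproteinases are zinc enzymes that are made as inactive precursors and, once activated, cut collagens, gelatin, proteoglycans and other proteins outside the cell. The gelatinases (Mmp2 and Mmp9) cut denatured collagen, the stromelysins (Mmp3 and Mmp10) have a broad range of substrates, Mmp13 is an interstitial collagenase and Mmp14 sits in the cell membrane and activates the Mmp2 precursor. Tissue inhibitors (Timps) bind the active enzymes and block them. In tumours these genes are expressed by the cancer cells and by fibroblasts, macrophages and other cells around them.

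In the mouse, 4 of the 10 genes lie in 1 cluster on chromosome 9: Mmp13, Mmp12, Mmp3 and Mmp10, with Mmp1b and Mmp1a among them, span 237.73 kb (7272514 to 7510242 on GRCm38.p6). The other 6 are spread over chromosomes 8 (Mmp2), 2 (Mmp9), 10 (Mmp11 and Timp3), 14 (Mmp14) and X (Timp1). The 250 bases before each start were searched for TGAGTCA on both strands, the letters bound by AP-1, a factor at the end of the JNK cascade in which MAP3K11 and MAP3K7 act. Sequences came from RefSeq, which gave a window for 8 of the 10 genes (Mmp2 and Mmp9 were not in the table). Of these 8, the 4 neighbours on chromosome 9 held the motif and the other 4 (Mmp11, Mmp14, Timp1 and Timp3) did not. Among further metalloproteinases of chromosome 9, Mmp1a, Mmp1b and Mmp7 (1 of its 2 starts) held the motif, and Mmp8, Mmp20 and Mmp27 did not. Of all 32851 windows listed, 4.46% held it, and of all 27025 genes 5.16%. The letters AGGAAG, bound by ETS factors such as PEA3 and searched likewise, were in 6 of the 8, where 32.3% of all genes held them. Of the 10 genes, the 4 windows with a TGAGTCA match are shown because they belong to the neighbouring genes whose levels are set side by side below. Capitals mark the match, which in Mmp13 reads on the other strand.
Mmp13, chr9:7272264-7272513, + strand: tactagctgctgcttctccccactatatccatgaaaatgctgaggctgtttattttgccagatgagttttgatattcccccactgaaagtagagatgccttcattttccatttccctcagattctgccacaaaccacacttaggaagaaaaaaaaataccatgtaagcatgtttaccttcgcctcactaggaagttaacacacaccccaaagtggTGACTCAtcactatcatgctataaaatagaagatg
Mmp12, second start, chr9:7347124-7347373, + strand: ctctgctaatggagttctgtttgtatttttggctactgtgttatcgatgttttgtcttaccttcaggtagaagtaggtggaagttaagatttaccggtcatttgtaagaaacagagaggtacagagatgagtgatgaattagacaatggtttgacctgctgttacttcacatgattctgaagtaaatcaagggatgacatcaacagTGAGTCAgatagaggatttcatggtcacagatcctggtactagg
Mmp3, chr9:7445572-7445821, + strand: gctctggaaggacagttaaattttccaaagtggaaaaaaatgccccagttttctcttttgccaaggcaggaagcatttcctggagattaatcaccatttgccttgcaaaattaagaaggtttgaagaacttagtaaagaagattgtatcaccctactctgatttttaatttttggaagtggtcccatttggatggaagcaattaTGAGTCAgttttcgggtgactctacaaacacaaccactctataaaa
Mmp10, chr9:7502092-7502341, + strand: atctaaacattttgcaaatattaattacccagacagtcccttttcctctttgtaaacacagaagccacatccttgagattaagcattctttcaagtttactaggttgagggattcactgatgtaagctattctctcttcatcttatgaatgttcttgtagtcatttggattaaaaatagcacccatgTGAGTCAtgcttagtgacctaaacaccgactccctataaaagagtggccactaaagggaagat
The match began 35 bases before the start in Mmp13, 44 in Mmp12, 46 in Mmp3 and 63 in Mmp10. Mmp12 has another start, whose window held no match. A match describes these letters only and is not evidence of binding.

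Values were on the log2 scale, where 1 unit is a 2-fold difference, with array medians between 5.45 and 5.56. None of the 10 genes was at or below the level of control probe sets (2.95) in any array. Epithelial keratin Krt8 lay between 10.42 and 13.35 over all arrays, whereas Krt18, at a median of 12.36, went down to 5.22. Arrays of a group were matched in pairs by the highest r of their autosome medians. The 38 pairs had a median r of 0.956, against 0.170 for unpaired arrays of 1 group. The matching itself favours such a gap, so it is no evidence for the pairs. The MAP3K11 pairs had r of 0.80, 0.95 and 0.47, the last the lowest of all 38. In all 38 the T labels differed. The members followed these pairs to different degrees. In Mmp10 the median difference was 0.31 within pairs and 1.34 between unpaired arrays of 1 group, and in Mmp2 it was 0.34 and 0.56. Each adjusted p from the fit that counts arrays as separate is therefore joined, where the call differs, by the p with the pairs as a random block. Several array pairs stood apart from the rest of their group. MAP3K7 T1 replicate 2 and T3 replicate 1 formed 1 of them, the FAK1 arrays split into 2 pairs, and 1 ErbB3 pair (T1 replicate 1 and T3 replicate 1) lay away from the other 4 ErbB3 arrays. Group differences of the 10 genes that rest on the 2 MAP3K7 arrays are given with and without them. Correlations and fits with a covariate are given with all arrays only.

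**Figure D1:**
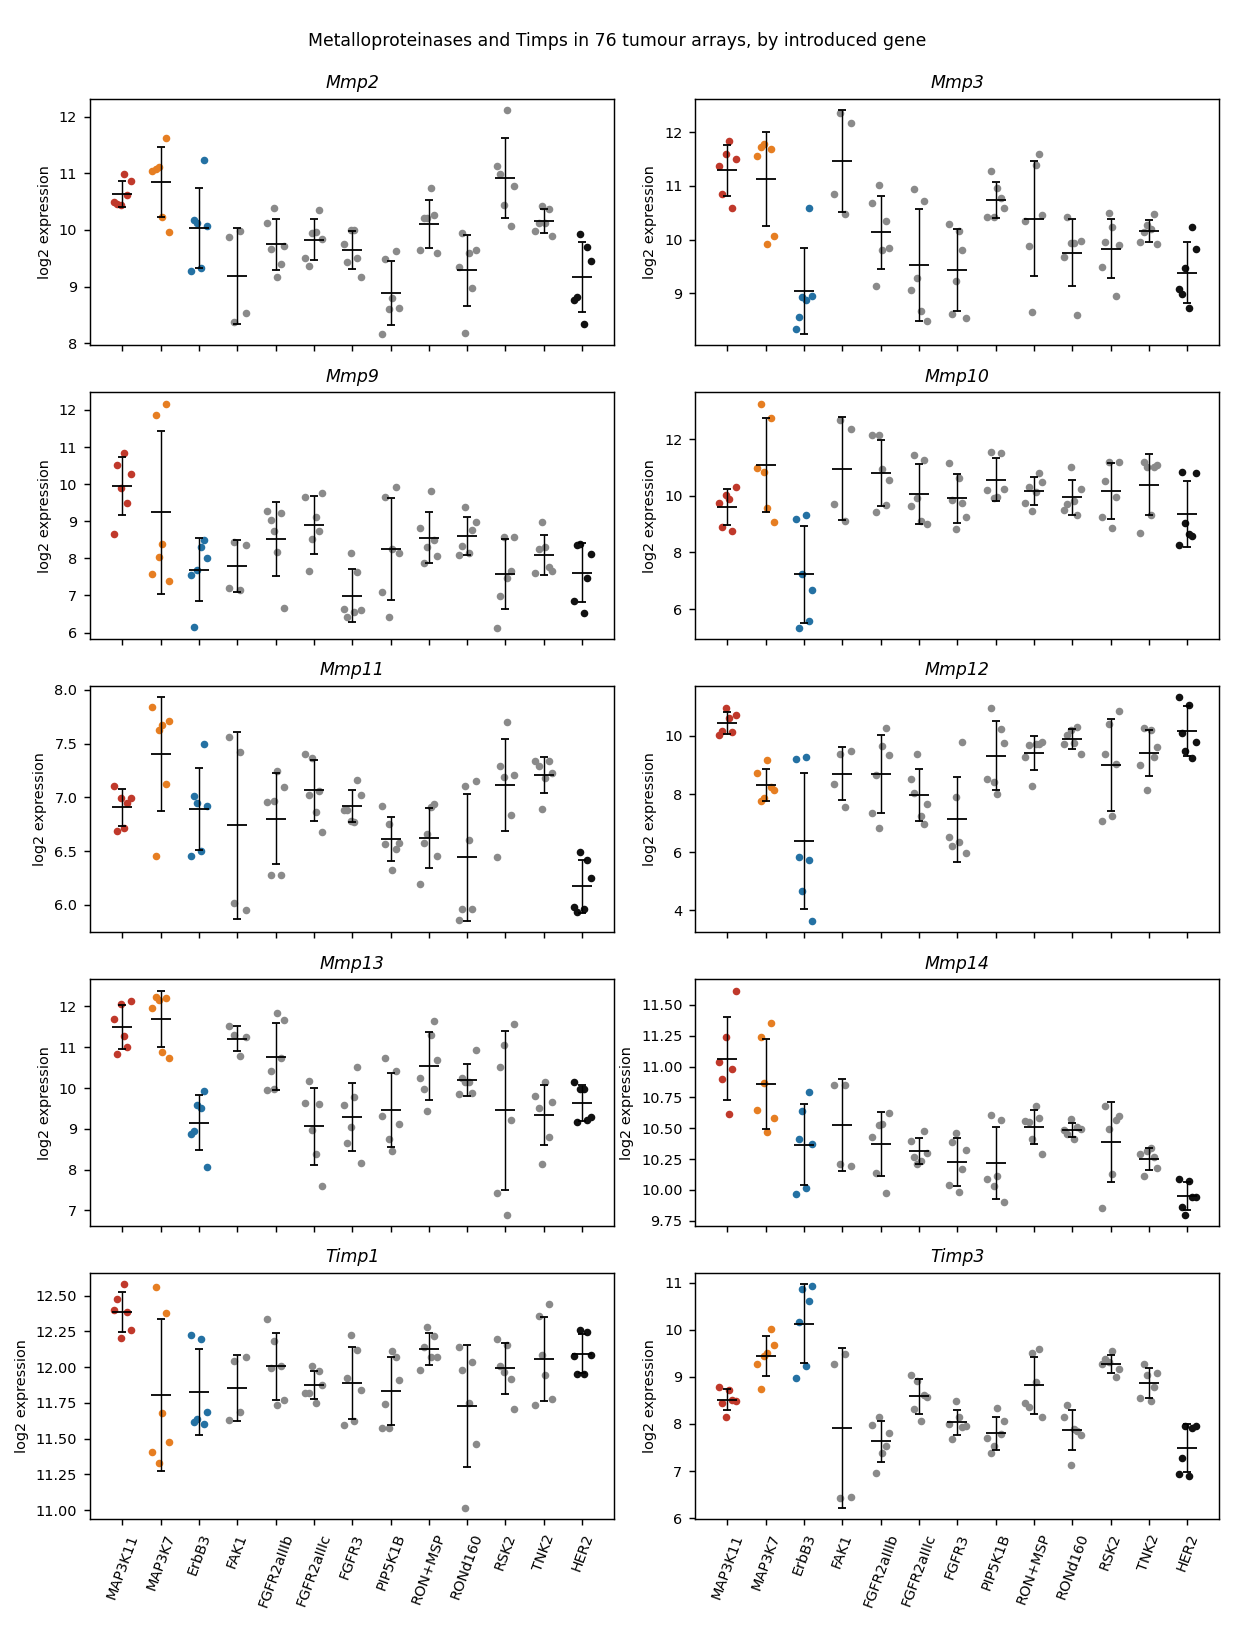
Log2 expression of the 8 metalloproteinases and 2 Timps on the vertical axes, in each array (points) of the 13 groups of the introduced gene, with the group mean and SD (bars; n = 4 for FAK1 and 6 for each other group). Mmp12 and Mmp10 are lowest in ErbB3, Timp3 is highest there, and Timp1 and Mmp14 have their highest group mean in MAP3K11.

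The first question was how far the 10 genes differed among the tumours. By limma's F test over the 13 groups all 10 differed, where 85.9% of all tested genes did, so the count itself sets them apart from nothing. With the pairs as a block 9 of 10 differed (background 54.0%) and Timp1 did not (adjusted p = 0.0947). The size of the differences was large for most members. The range of the group means was 4.06 log2 units in Mmp12 and 3.86 in Mmp10, wider than in 99.5% and 99.4% of tested genes. It was 0.65 in Timp1 and wider there than in 60.2%. Between T2 and T1, and between T3 and T1, limma called 0 of the 10 and 0 of all tested genes (0%), with 306 and 654 genes at an unadjusted p under 0.05. The T labels differ within each pair, so the fit with the pairs as a block bears on them too. It called 0 of the 10 genes in either comparison, and 0 and 1 of all tested genes. In each, 1 of the 10 had an unadjusted p under 0.05.

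Most of the enzymes were higher in MAP3K11 tumours. Against the other 12 groups, each given equal weight, 7 of the 10 genes were higher in MAP3K11 (Mmp2, Mmp3, Mmp9, Mmp12, Mmp13, Mmp14 and Timp1), 0 were lower and 3 were not called (Mmp10, Mmp11 and Timp3). Of all tested genes, 25.0% were higher and 29.3% lower in this comparison. The median difference of the 10 genes was 0.757, against -0.0146 over all tested genes. All 7 calls held with the pairs as a block, where 17.3% of genes were higher. Other cell markers moved with the MAP3K11 arrays. Skeletal muscle markers were lower in 6 of 8 (2 with the block), and their mean lay between -2.41 and -2.11 in MAP3K11 and between -2.39 and 4.53 in the other arrays. Endothelial markers were higher in 5 of 6 (4 with the block), with a mean between 0.20 and 0.74 in MAP3K11 and between -1.48 and 0.97 in the others. With the muscle mean as a covariate all 7 calls held; an endothelial covariate was not tested. Every MAP3K11 array lay above the mean of the other 70 arrays in each of the 7, and yet the ranges of MAP3K11 and the other arrays overlapped in all of them. Fewer cells of a type and less RNA per cell cannot be told apart in these samples.

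The gelatinases come first. Mmp9 (gelatinase B), which neutrophils, macrophages and osteoclasts are known to make, lay at 8.66, 10.09 and 10.85 (lowest, median and highest) in the 6 MAP3K11 arrays and at 6.13, 8.17 and 12.17 in the other 70. Only 2 of the 70 exceeded the MAP3K11 median, and both were MAP3K7 arrays: T1 replicate 2 at 11.87 and T3 replicate 1 at 12.17, while the other 4 MAP3K7 arrays lay between 7.38 and 8.39. The difference between MAP3K11 and the other groups was 1.77 ± 0.42 (SE), or 3.42-fold (adjusted p = 0.000311, limma), the largest of the 10, and the other Mmp9 probe set was called too. In descending order the Mmp9 group means were 9.95 in MAP3K11, 9.24 in MAP3K7, 8.91 in FGFR2aIIIc, 8.61 in RONd160, 8.56 in RON+MSP, 8.52 in FGFR2aIIIb, 8.25 in PIP5K1B, 8.09 in TNK2, 7.79 in FAK1, 7.70 in ErbB3, 7.62 in HER2, 7.57 in RSK2 and 6.998 in FGFR3. No 2 neighbours in that order differed by more than the larger of their SDs, which ran from 0.51 to 2.19.

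Mmp9 moved together with markers of osteoclasts, the bone-resorbing cells. Across the 76 arrays its r with the mean of 5 such markers was 0.83, and 0.788 with group means removed, a description over arrays that share groups and pairs. Those markers were higher in MAP3K11 in 4 of 5 (Ctsk by 1.08, Acp5 by 1.44, Dcstamp by 1.04 and Ocstamp by 1.96), and in 3 with the pairs as a block, where Ctsk was lost (adjusted p = 0.0601). The marker mean lay between 0.66 and 1.46 in MAP3K11 and between -1.33 and 3.25 in the other arrays, relative to the mean of all arrays. It was highest in the same pair of MAP3K7 arrays (3.00 and 3.25) that had the highest Mmp9. How far r, and the covariate fit below, rest on these 2 arrays was not tested. Calcr, a defining osteoclast marker, was not tested and lay at or below the control level in 50 of the 76 arrays. In a fit added after seeing the data, with the marker mean as a covariate, the Mmp9 difference was 0.22 (adjusted p = 0.572). The tested genes closest to Mmp9 over the 13 group means were Acp5, itself in the osteoclast list, Plxnb1 and A630023A22Rik (r = 0.902, 0.902 and 0.874). Here and below, such genes are those of highest r among all tested genes over 13 points. A high r therefore follows in part from the picking. For the genes so named, r with group means removed ran from 0.0789 (Rabggta with Mmp12) to 0.781 (Acp5 with Mmp9). Neutrophil markers were higher in 1 of 7 in MAP3K11 (0 with the block). Macrophage markers were higher in 0 of 10 and lower in 6 (5 with the block). In fits with the fibroblast, macrophage or muscle mean as a covariate, Mmp9 kept its call in MAP3K11 against the other groups. A neutrophil covariate was not tested, nor was the cause of the difference.

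Mmp2 (gelatinase A), typically a product of fibroblasts, lay at 10.44, 10.55 and 10.99 in MAP3K11 (lowest, median, highest) and at 8.16, 9.91 and 12.12 in the other 70 arrays. The 6 MAP3K11 arrays were close together, and 10 of the 70 exceeded their median. The difference was 0.82 ± 0.23 (SE; adjusted p = 0.00151). Other groups had means as high. The Mmp2 group means were 10.92 in RSK2, 10.84 in MAP3K7, 10.64 in MAP3K11, 10.15 in TNK2, 10.11 in RON+MSP, 10.04 in ErbB3, 9.83 in FGFR2aIIIc, 9.74 in FGFR2aIIIb, 9.64 in FGFR3, 9.28 in RONd160, 9.19 in FAK1, 9.17 in HER2 and 8.88 in PIP5K1B. Of the neighbours in this order, MAP3K11 and TNK2 were apart by more than the larger SD, and no others were. Set against their other 12 groups, RSK2 was higher by 1.10 ± 0.23 (SE; adjusted p = 0.000524) and MAP3K7 by 1.04 ± 0.23 (SE; adjusted p = 0.000503), whereas Mmp2 was lower in PIP5K1B by -1.12 ± 0.23 (SE; adjusted p = 0.00043). These 3 calls held with the pairs as a block (background 1.49% higher in RSK2 and 1.24% lower in PIP5K1B).

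Mmp2 followed the fibroblast markers. Its r with the mean of 10 fibroblast and matrix genes was 0.826 over the 76 arrays and 0.718 with group means removed. Of the 10 markers 7 were higher in MAP3K11 and 1 (the proteoglycan Dcn) was lower. Their mean lay between 0.35 and 0.74 in MAP3K11 and between -1.52 and 0.91 in the other arrays. It ran from -0.05 to 0.85 in MAP3K7 and from -1.09 to -0.38 in HER2. With that mean as a covariate the Mmp2 difference between MAP3K11 and the other groups was 0.22 and lost its call (adjusted p = 0.321). Mmp2 also ran with Timp3 (r = 0.674, and 0.582 with group means removed). The tested genes closest to it over the 13 group means were Ndrg4, Hmcn1 and Rgs5 (r = 0.960, 0.947 and 0.944).

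**Figure D2:**
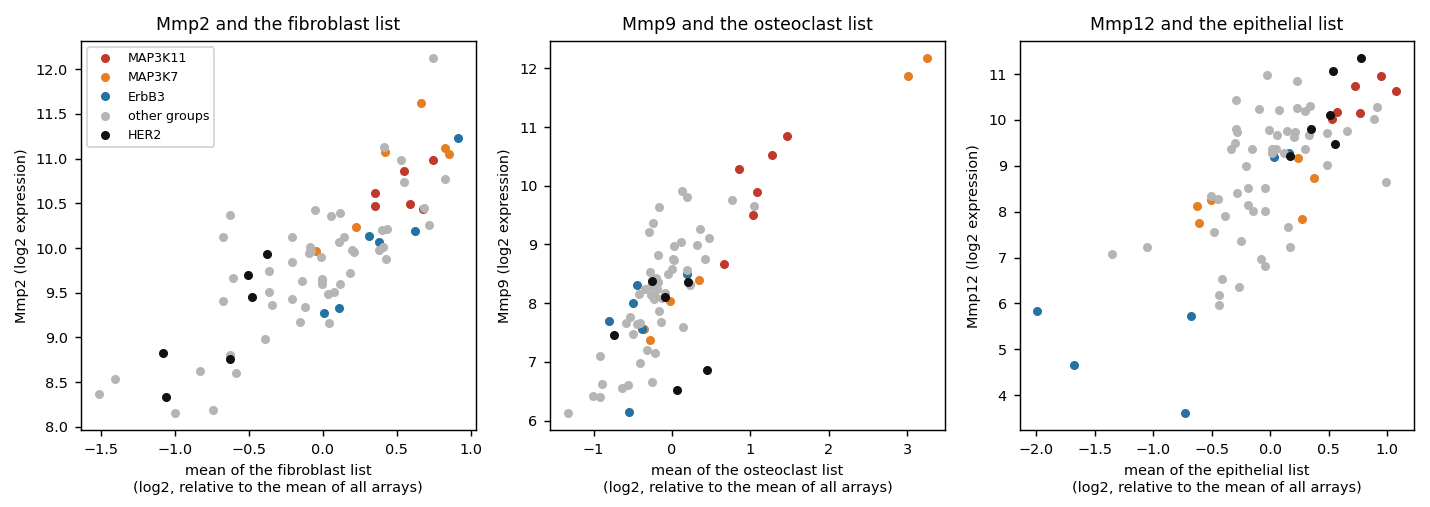
Each point is 1 array, with log2 expression of Mmp2, Mmp9 and Mmp12 on the vertical axes and the mean of a marker list (log2, relative to the mean of all arrays) on the horizontal axes. Mmp2 runs with the fibroblast list (r = 0.826), Mmp9 with the osteoclast list (r = 0.83) and Mmp12 with the epithelial list (r = 0.712), and the 2 MAP3K7 arrays lie far to the upper right in the Mmp9 panel.

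Of the stromelysins, Mmp3 was higher in MAP3K11 and Mmp10 was not called. Mmp3 lay at 10.59, 11.43 and 11.85 in MAP3K11 (lowest, median, highest), against 8.33, 10.02 and 12.37 in the other 70 arrays. Of those 70, 7 were above the MAP3K11 median. The difference was 1.21 ± 0.31 (SE), or 2.31-fold (adjusted p = 0.000711). Ordered by mean, Mmp3 was at 11.47 in FAK1, 11.29 in MAP3K11, 11.12 in MAP3K7, 10.74 in PIP5K1B, 10.39 in RON+MSP, 10.16 in TNK2, 10.14 in FGFR2aIIIb, 9.83 in RSK2, 9.76 in RONd160, 9.53 in FGFR2aIIIc, 9.44 in FGFR3, 9.38 in HER2 and 9.03 in ErbB3, with all neighbours within the larger SD. FAK1, with Mmp3 at 12.37, 12.18, 10.84 and 10.47 in its 4 arrays, was higher than the other groups by 1.41 ± 0.37 (SE; adjusted p = 0.0111). It lost the call with the pairs as a block (adjusted p = 0.226), which leaves 2 pairs. F2r, a thrombin receptor, Ptprn and Zfp408 were closest to Mmp3 over the group means (r = 0.902, 0.875 and 0.870).

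Mmp10 (stromelysin 2) lay at 8.76, 9.80 and 10.32 in MAP3K11 and at 5.35, 9.93 and 13.25 in the other 70 arrays. The groups overlapped fully, and the difference was -0.45 ± 0.48 (SE; adjusted p = 0.436). Its highest values were in the MAP3K7 arrays T1 replicate 2 (13.25) and T3 replicate 1 (12.75) and in the FAK1 arrays T1 replicate 2 (12.68) and T3 replicate 1 (12.35). The mean was 11.08 in MAP3K7, 10.96 in FAK1, 10.82 in FGFR2aIIIb, 10.56 in PIP5K1B, 10.38 in TNK2, 10.16 in RSK2, 10.15 in RON+MSP, 10.06 in FGFR2aIIIc, 9.94 in RONd160, 9.91 in FGFR3, 9.60 in MAP3K11, 9.36 in HER2 and 7.23 in ErbB3. ErbB3 was below HER2, its neighbour in this order, by 2.14, more than the larger SD (1.72). Of the neighbours in the Mmp10 order it was the only pair apart by more than its spread. The calcium channel subunit Cacna2d3 was closest to Mmp10 over the group means (r = 0.863), followed by Ell and Asb7 (r = 0.852 and 0.830).

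Mmp11 (stromelysin 3), known as a product of fibroblasts around tumours, varied little in MAP3K11, at 6.68, 6.97 and 7.11, against 5.86, 6.90 and 7.84 in the other 70 arrays. The difference was 0.07 ± 0.16 (SE; adjusted p = 0.724). It was highest on average in MAP3K7 (7.41), followed by TNK2 (7.21), RSK2 (7.11), FGFR2aIIIc (7.06), FGFR3 (6.92), MAP3K11 (6.91), ErbB3 (6.89), FGFR2aIIIb (6.80), FAK1 (6.74), RON+MSP (6.62), PIP5K1B (6.61), RONd160 (6.44) and HER2 (6.17). No neighbours in the Mmp11 order were apart by more than the larger SD. HER2 was lower than the other 12 groups by -0.72 ± 0.16 (SE; adjusted p = 0.000644), a call that held with the pairs as a block (adjusted p = 0.0197). Among the members Mmp11 ran against Timp1 (r = -0.356, and -0.539 with group means removed). The lipid exporter Abca1 (r = 0.934), Hnmt (0.917) and Foxn3 (0.912) were closest to it over the group means.

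The collagenase Mmp13 lay at 10.85, 11.495 and 12.13 in MAP3K11 (lowest, median, highest), against 6.90, 9.96 and 12.23 in the other 70 arrays. Of these, 9 exceeded the MAP3K11 median. The difference was 1.51 ± 0.37 (SE), or 2.85-fold (adjusted p = 0.000455). In descending order the Mmp13 group means were 11.70 in MAP3K7, 11.504 in MAP3K11, 11.21 in FAK1, 10.77 in FGFR2aIIIb, 10.54 in RON+MSP, 10.20 in RONd160, 9.63 in HER2, 9.46 in PIP5K1B, 9.45 in RSK2, 9.34 in TNK2, 9.29 in FGFR3, 9.15 in ErbB3 and 9.06 in FGFR2aIIIc. RONd160 and HER2 were the only neighbours there apart by more than the larger SD. In RSK2 the 3 pairs of arrays lay far apart, at 7.43 and 6.90, at 10.52 and 9.23, and at 11.07 and 11.57, around a mean of 9.45. Closest to Mmp13 over the group means was Tgfb1, the cytokine TGF-beta 1 (r = 0.914), then Nxph3 and Tecpr1 (r = 0.888 and 0.862).

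Mmp12 (macrophage elastase), named for the cells in which it was first found, lay at 10.02, 10.40 and 10.95 in MAP3K11 and at 3.62, 9.21 and 11.34 in the other 70 arrays. It was high in all 6 MAP3K11 arrays, and 5 of the 70 exceeded their median. The difference was 1.73 ± 0.49 (SE), or 3.31-fold (adjusted p = 0.00221). The Mmp12 group means were 10.44 in MAP3K11, 10.17 in HER2, 9.89 in RONd160, 9.42 in TNK2 and in RON+MSP, 9.32 in PIP5K1B, 8.998 in RSK2, 8.69 in FAK1 and in FGFR2aIIIb, 8.31 in MAP3K7, 7.96 in FGFR2aIIIc, 7.12 in FGFR3 and 6.39 in ErbB3. Neighbours in the Mmp12 order lay within the larger SD throughout. FGFR3 was lower by -1.82 ± 0.49 (SE; adjusted p = 0.0295), a call lost with the pairs as a block (adjusted p = 0.356). HER2 was higher by 1.43 ± 0.49 (SE; adjusted p = 0.0244), likewise lost with the block (adjusted p = 0.117).

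Despite its name, Mmp12 did not follow the macrophage markers here. Its r with the mean of 10 macrophage genes was -0.511 over the 76 arrays, and -0.248 with group means removed. In MAP3K11, where Mmp12 was highest, 6 of those 10 were lower and 0 higher (5 and 0 with the block). Among the 6 were Itgam (-1.35), Ms4a7 (-0.85) and Adgre1 (-0.72). The macrophage mean lay between -0.69 and -0.23 in MAP3K11 and between -1.19 and 0.96 in the other arrays. Instead Mmp12 ran with 6 epithelial markers (r = 0.712, and 0.571 with group means removed). Their mean lay between 0.52 and 1.08 in MAP3K11 and between -1.99 and 0.99 in the other arrays. Rabggta, Kcmf1 and Prkx were closest to Mmp12 over the group means (r = 0.938, 0.927 and 0.911). Their r with group means removed was 0.0789, 0.475 and 0.301.

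The membrane enzyme Mmp14 had the smallest adjusted p of the 10 genes in MAP3K11. It lay at 10.62, 11.01 and 11.62 in MAP3K11 (lowest, median, highest), against 9.80, 10.39 and 11.35 in the other 70 arrays. Of the 70 only 2 exceeded the MAP3K11 median, and 1 MAP3K11 array lay above all 70. The difference was 0.69 ± 0.11 (SE), or 1.61-fold (adjusted p = 1.43e-07), and the other 2 Mmp14 probe sets gave 0.34 and 0.79, both called. The group means were 11.07 in MAP3K11, 10.86 in MAP3K7, 10.53 in FAK1, 10.51 in RON+MSP, 10.49 in RONd160, 10.39 in RSK2, 10.37 in FGFR2aIIIb and in ErbB3, 10.31 in FGFR2aIIIc, 10.25 in TNK2, 10.23 in FGFR3, 10.22 in PIP5K1B and 9.95 in HER2. No neighbours in the Mmp14 order were apart by more than the larger SD. Mmp14 ran with the fibroblast mean (r = 0.617) and with the osteoclast mean (r = 0.616) over the 76 arrays. The semaphorin Sema4c, Nxph3 and Smoc2 were closest to it over the group means (r = 0.939, 0.936 and 0.921).

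The inhibitors did not move together. Timp1, a soluble inhibitor that many cells induce with the enzymes, lay at 12.20, 12.39 and 12.58 in MAP3K11 and at 11.01, 11.97 and 12.56 in the other 70 arrays. Of these 70, 2 were above the MAP3K11 median. The difference was 0.46 ± 0.12 (SE), or 1.37-fold (adjusted p = 0.000639). Means of Timp1 were 12.38 in MAP3K11, 12.13 in RON+MSP, 12.09 in HER2, 12.06 in TNK2, 12.004 in FGFR2aIIIb, 11.99 in RSK2, 11.89 in FGFR3, 11.87 in FGFR2aIIIc, 11.86 in FAK1, 11.83 in PIP5K1B and in ErbB3, 11.80 in MAP3K7 and 11.73 in RONd160. MAP3K11 was above RON+MSP by more than the larger SD, and no other neighbours were apart. In MAP3K7 the 2 arrays that stood apart were at 12.56 (T1 replicate 2) and 12.38 (T3 replicate 1), and the other 4 lay between 11.33 and 11.68. The nucleoporin Nup98, Coro1c and Selenoi were closest to Timp1 over the group means (r = 0.925, 0.908 and 0.903).

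Timp3, an inhibitor bound to the extracellular matrix, lay at 8.15, 8.50 and 8.79 in MAP3K11, against 6.44, 8.42 and 10.93 in the other 70 arrays. The difference was 0.02 ± 0.24 (SE; adjusted p = 0.939), and none of its 4 probe sets was called. In descending order Timp3 was at 10.13 in ErbB3, 9.44 in MAP3K7, 9.27 in RSK2, 8.87 in TNK2, 8.82 in RON+MSP, 8.58 in FGFR2aIIIc, 8.52 in MAP3K11, 8.03 in FGFR3, 7.91 in FAK1, 7.86 in RONd160, 7.80 in PIP5K1B, 7.63 in FGFR2aIIIb and 7.49 in HER2. RSK2 and TNK2, and MAP3K11 and FGFR3, were apart by more than the larger SD. It varied with the introduced gene more than any other member by the F statistic (11.83). In FAK1 its 4 values fell into 2 pairs, 9.27 with 9.49 and 6.44 with 6.45. Timp3 ran with the fibroblast (r = 0.707), endothelial (r = 0.643) and macrophage means (r = 0.512). Over the group means Mypop (r = 0.951), Plekhg5 (0.924) and Ssc5d (0.923) were closest to it.

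**Figure D3:**
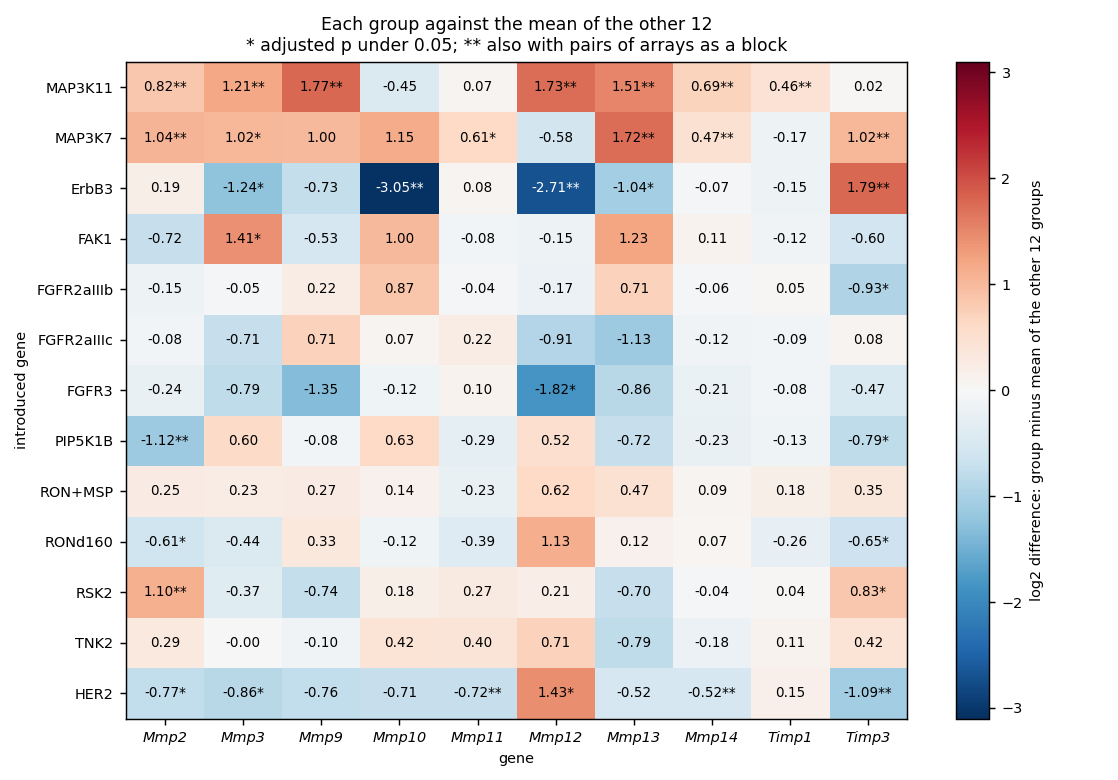
Log2 difference between each introduced gene (rows) and the mean of the other 12 groups for the 10 genes (columns), with colour from blue (lower) to red (higher). An asterisk marks adjusted p under 0.05 by limma and 2 asterisks mark calls that also hold with the pairs of arrays as a block; MAP3K11 holds 7 such calls, all higher, and ErbB3 has the lowest difference, -3.05 in Mmp10.

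Among the other 12 groups, each against the mean of its rest, 26 of 120 tests were called, 11 higher and 15 lower, where 14.8% of such tests over all tested genes were called. With the pairs as a block 12 were called (background 3.97%). These comparisons share their arrays. Most of the calls lay in MAP3K7, HER2 and ErbB3.

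MAP3K7 was higher in 6 of 10 genes (Mmp2, Mmp3, Mmp11, Mmp13, Mmp14 and Timp3) and lower in 0, where 12.2% of all tested genes were higher and 12.3% lower. With the block 4 remained (Mmp2, Mmp13, Mmp14 and Timp3; background 3.76%). Its median over the 10 genes was 1.01, against -0.0036 over all tested genes. Mmp13 was its largest call: 10.75, 12.07 and 12.23 (lowest, median, highest) in MAP3K7 and 6.90, 9.96 and 12.13 in the other 70 arrays, a difference of 1.72 ± 0.37 (SE; adjusted p = 0.000501). All 6 MAP3K7 arrays were above the mean of the others, although the ranges overlapped. Timp3 was higher by 1.02 ± 0.24 (SE; adjusted p = 0.0012) and Mmp14 by 0.47 ± 0.11 (SE; adjusted p = 0.000909). Without the 2 MAP3K7 arrays that stood apart, Mmp14 was at 0.25 (adjusted p = 0.154) and Mmp3 at 0.72 (adjusted p = 0.173). With the fibroblast mean as a covariate 5 of the 6 calls were lost and Mmp13 was kept, with Mmp2 at 0.49 (adjusted p = 0.0533), Mmp14 at 0.28 (0.0587) and Timp3 at 0.54 (0.0847). Fibroblast markers were higher in 4 of 10 and osteoclast markers in 5 of 5 in MAP3K7 (2 of each with the block). The Timp1 difference without the 2 arrays was -0.50 (adjusted p = 0.00335), beside -0.17 with them.

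ErbB3 tumours had low Mmp10 and Mmp12 and high Timp3. Mmp3, Mmp10, Mmp12 and Mmp13 were lower and Timp3 was higher, where 13.6% and 15.0% of all tested genes were. Mmp10 lay at 5.35, 6.96 and 9.33 (lowest, median, highest) in ErbB3, against 8.28, 9.99 and 13.25 in the other 70 arrays. Of its 6 arrays 4 were at 7.25 or below, under every other array, and the pair T1 replicate 1 and T3 replicate 1 was at 9.17 and 9.33, within the others' range. The difference was -3.05 ± 0.48 (SE), or 8.30-fold lower (adjusted p = 3.16e-06). Mmp12 had the same split: it lay between 3.62 and 5.83 in the 4 arrays and at 9.20 and 9.27 in the pair, against 5.97 to 11.34 in the other 70. The difference was -2.71 ± 0.50 (SE), or 6.54-fold lower (adjusted p = 3.66e-05). Mmp3 was lower by -1.24 ± 0.31 (SE; adjusted p = 0.00193) and Mmp13 by -1.04 ± 0.38 (SE; adjusted p = 0.0301), and both lost the call with the block (adjusted p = 0.0529 and 0.166). Mmp10, Mmp12 and Timp3 kept theirs (background 6.12% lower and 5.80% higher).

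Timp3 in ErbB3 lay at 8.99, 10.39 and 10.93, against 6.44, 8.37 and 10.02 in the other arrays, with the lowest 2 values again in the pair T1 replicate 1 and T3 replicate 1 (8.99 and 9.24). The difference was 1.79 ± 0.24 (SE), or 3.45-fold (adjusted p = 2.02e-07). Epithelial markers moved with this split. The mean of the 6 epithelial markers was 0.03 and 0.16 in the pair and between -1.99 and -0.67 in the other 4 ErbB3 arrays. Of the 6 markers 2 were lower in ErbB3 and 1 higher (2 and 0 with the block), and Krt18 was lower by -3.63 ± 0.43 (SE). Macrophage markers were higher in 7 of 10 (5 with the block), and their mean was between 0.15 and 0.87 in ErbB3. Fibroblast markers were higher in 5 of 10 and lower in 1 (4 and 1 with the block). In a fit with the macrophage mean as a covariate, Mmp3 was at -0.81 (adjusted p = 0.0595) and Mmp13 at -0.81 (0.165). Both lost the call there, while Mmp10, Mmp12 and Timp3 kept theirs. The fibroblast mean as a covariate removed none of the ErbB3 calls. An epithelial covariate was not tested, nor was the cause.

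HER2, the gene that drove the starting tumours, was lower in 5 of 10 genes (Mmp2, Mmp3, Mmp11, Mmp14 and Timp3) and higher in Mmp12, where 11.1% and 15.5% of all tested genes were. With the block, 3 lower calls remained (Mmp11, Mmp14 and Timp3; background 3.63%). Mmp14 lay between 9.80 and 10.09 in the 6 HER2 arrays, against 9.85 to 11.62 in the others, a difference of -0.52 ± 0.11 (SE; adjusted p = 0.000246). Timp3 was lower by -1.09 ± 0.24 (SE; adjusted p = 0.000531). Fibroblast markers were lower in 8 of 10 in HER2, endothelial markers in 4 of 6 and macrophage markers in 3 of 10 (5, 1 and 2 with the block). With the fibroblast mean as a covariate all 6 HER2 calls were lost, with Mmp2 at -0.0378 (adjusted p = 0.948), Mmp14 at -0.26 (0.147) and Timp3 at -0.44 (0.281).

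In the other groups the calls were few. RSK2 was higher in Mmp2 and in Timp3, with Timp3 at 0.83 ± 0.24 (SE; adjusted p = 0.011) and not with the block (adjusted p = 0.079), where 8.73% of genes were higher. PIP5K1B was lower in Mmp2 and in Timp3 (background 7.45%), with Timp3 at -0.79 ± 0.24 (SE; adjusted p = 0.0168) and 0.119 with the block. RONd160 was lower in Mmp2 by -0.61 ± 0.23 (SE; adjusted p = 0.0412) and in Timp3 by -0.65 ± 0.24 (SE; adjusted p = 0.0424), where 11.9% of genes were lower, and neither held with the block (adjusted p = 0.238 and 0.132). FGFR2aIIIb was lower in Timp3 by -0.93 ± 0.24 (SE; adjusted p = 0.00682; 0.0651 with the block; background 4.69%). FAK1 was higher in Mmp3 alone (background 3.42%) and FGFR3 lower in Mmp12 alone (background 1.25%). RON+MSP, TNK2 and FGFR2aIIIc had 0 calls among the 10 genes by limma, with 0, 2 and 2 at an unadjusted p under 0.05, where 8.57%, 5.16% and 1.62% of all tested genes were called.

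MAP3K11 and MAP3K7, both kinases at the head of MAP kinase cascades, were set against each other. Of the 10 genes, Mmp12 and Timp1 were higher in MAP3K11 and Timp3 was lower, where 16.6% and 20.8% of all tested genes were. Mmp12 lay between 10.02 and 10.95 in MAP3K11 and between 7.74 and 9.17 in MAP3K7, with no overlap. The difference was 2.13 ± 0.66 (SE), or 4.38-fold (adjusted p = 0.00834; adjusted p = 0.0503 with the pairs as a block). Timp1 was higher by 0.58 ± 0.16 (SE; adjusted p = 0.00244) and held with the block (adjusted p = 0.0157; background 8.80%), but not in a fit on only these groups (adjusted p = 0.0742). Timp3 lay between 8.15 and 8.79 in MAP3K11, against 8.73 to 10.02 in MAP3K7, a difference of -0.92 ± 0.32 (SE; adjusted p = 0.0201; 0.0802 with the block). Mmp2, Mmp3, Mmp13 and Mmp14 were not called, at -0.20 ± 0.31, 0.17 ± 0.42, -0.20 ± 0.50 and 0.21 ± 0.14 (SE). Nor was Mmp10, at -1.48 ± 0.65 (SE; adjusted p = 0.0633), which was called with the macrophage mean (-2.45, adjusted p = 0.0011) or the osteoclast mean (-1.52, adjusted p = 0.0488) as a covariate. In the fit with the macrophage mean, Mmp12 was at 1.63 (adjusted p = 0.0609) and Timp3 at -0.34 (0.37), and both lost the call.

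The 2 MAP3K7 arrays decided much of that comparison. Without them 6 of the 10 genes were called, in a fit for which the share over all tested genes is not given. Mmp9 was then higher in MAP3K11 by 2.11 (adjusted p = 0.000759), Mmp14 was higher by 0.43 (adjusted p = 0.0196) and Mmp11 was lower by -0.79 (adjusted p = 0.00514), beside 0.71, 0.21 and -0.50 with all arrays, none of them called. The mean of the osteoclast markers lay at 3.00 and 3.25 in those 2 arrays and between -0.35 and 0.34 in the other 4 MAP3K7 arrays.

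**Figure D4:**
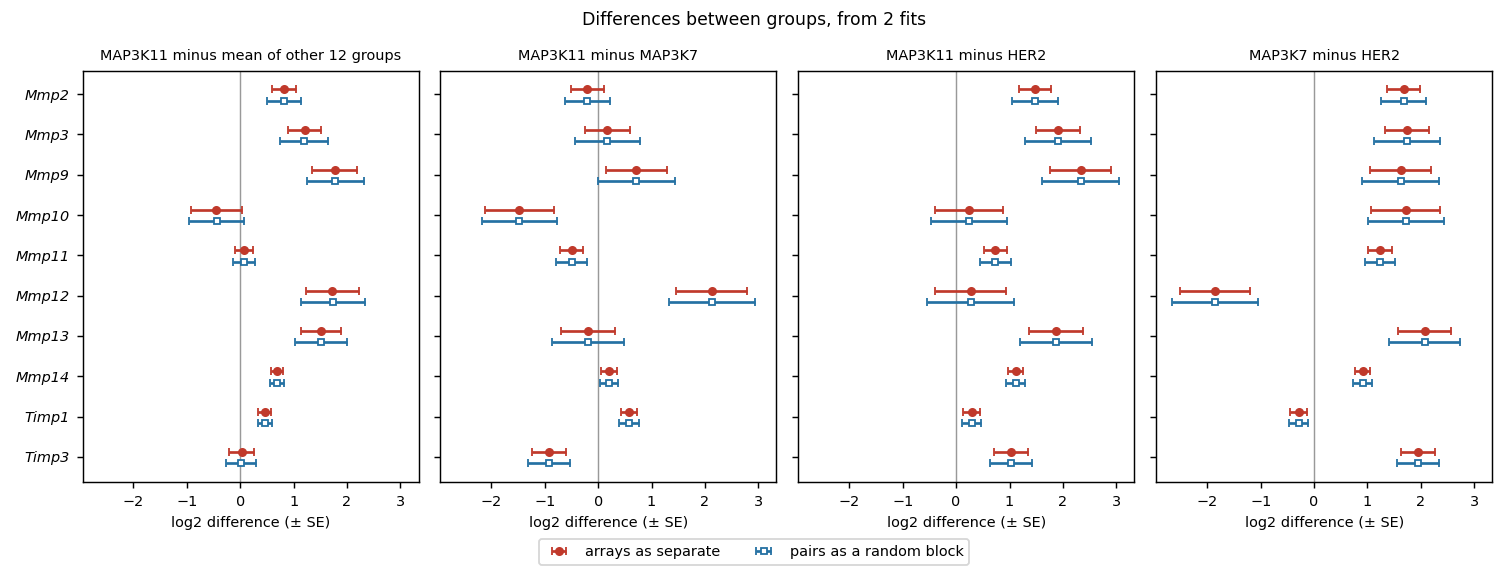
Log2 differences with their SEs for the 10 genes in 4 comparisons, from the fit with arrays as separate (filled) and with pairs of arrays as a random block (open). The differences are alike in both fits and the SEs of the second are wider. All 10 genes lie to the right of 0 in MAP3K11 minus HER2, and 7 of them were called. Mmp12 lies far to the right in MAP3K11 minus MAP3K7 and to the left in MAP3K7 minus HER2.

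Against HER2, the driver of the starting model, MAP3K11 was higher in 7 of 10 genes (Mmp2, Mmp3, Mmp9, Mmp11, Mmp13, Mmp14 and Timp3) and lower in 0, where 21.5% of all tested genes were higher and 27.7% lower. All 7 held with the block (background 13.9%). In these 7, already called higher, the 6 MAP3K11 arrays lay above the 6 HER2 arrays. The share of all tested genes apart in this way is not given, so the separation does not set the 7 apart from other genes. Mmp9 had the largest difference, with 8.66, 10.09 and 10.85 in MAP3K11 and 6.53, 7.79 and 8.38 in HER2 (lowest, median, highest): 2.34 ± 0.57 (SE), or 5.05-fold (adjusted p = 0.000538). Mmp3 was higher by 1.91 ± 0.42 (SE; adjusted p = 0.000117), Mmp13 by 1.87 ± 0.50 (SE; adjusted p = 0.00151) and Mmp2 by 1.48 ± 0.31 (SE; adjusted p = 5.08e-05). For Mmp14 the values were 10.62 to 11.62 in MAP3K11 and 9.80 to 10.09 in HER2, a difference of 1.11 ± 0.14 (SE; adjusted p = 3.09e-09). Mmp12, at 0.27 ± 0.66 (SE; adjusted p = 0.755), was high in both groups. With the osteoclast mean as a covariate, added after seeing the data, Mmp9 was at 0.82 (adjusted p = 0.0812). With the fibroblast mean as a covariate 3 of the 7 calls were left, and Mmp2 was at 0.24 (adjusted p = 0.551).

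MAP3K7 against HER2 gave 8 genes higher and 1 lower in MAP3K7, where 16.4% and 20.0% of all tested genes were, and 6 with the block, all higher (background 8.08%). Timp3 lay at 8.73, 9.47 and 10.02 in MAP3K7 and at 6.90, 7.60 and 7.97 in HER2, with no overlap. The difference was 1.95 ± 0.32 (SE), or 3.85-fold (adjusted p = 4.91e-06). Mmp13 was higher by 2.07 ± 0.50 (SE; adjusted p = 0.000973) and Mmp2 by 1.68 ± 0.31 (SE; adjusted p = 2.03e-05). With the fibroblast mean as a covariate 2 of the 9 calls were left, and Timp3 was at 0.90 (adjusted p = 0.0716), Mmp13 at 1.40 (0.14) and Mmp2 at 0.49 (0.264). The gene lower in MAP3K7 was Mmp12, at 7.74 to 9.17 in MAP3K7 and 9.22 to 11.34 in HER2, a difference of -1.86 ± 0.66 (SE; adjusted p = 0.0233; 0.101 with the block). Without the 2 MAP3K7 arrays Mmp9 was at 0.23 (adjusted p = 0.775) and Mmp10 at 0.77 (adjusted p = 0.41), beside 1.62 and 1.72 with them. Both were also lost in a fit on only these groups (adjusted p = 0.221 and 0.126). Without the 2 arrays Mmp12 was at -1.67 (adjusted p = 0.0818) and Timp1 at -0.62 (adjusted p = 0.00146), beside -1.86 and -0.29. This comparison and that of MAP3K11 share the HER2 arrays.

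The genes around the 4 neighbours on chromosome 9 were examined in the same fits. Within 1000 kb on either side, 17 genes were tested: 7 metalloproteinases and 10 others. In ErbB3, Mmp13, Mmp12, Mmp3 and Mmp10 were lower, whereas the 10 other genes lay between -0.06 and 0.61, with 2 higher and 0 lower (1 higher with the block), where 15.0% of all tested genes were higher and 13.6% lower. With the block Mmp13 and Mmp3 lost the call. Of the other tested metalloproteinases, Mmp8, a neutrophil collagenase in the same cluster, was at -0.09 ± 0.27 (SE) and Mmp1a at -0.55 ± 0.42 (SE). Mmp7 was lower by -0.21 ± 0.08 (SE; adjusted p = 0.0292 by limma; 0.16 with the block). In MAP3K7 the 10 others lay between -0.16 and 0.28, with 2 higher (0 with the block; 12.2% over all genes), beside 1.72 in Mmp13 and 1.02 in Mmp3, whose call was lost with the block. Mmp1a, named after its values were seen, averaged 4.59 ± 2.89 (SD, n = 6) in MAP3K7. In the other arrays it averaged 3.04, close to the level of control probe sets (2.95). In FAK1 Mmp1a was at 1.35 ± 0.50 (SE) and not called (adjusted p = 0.0758 by limma). The MAP3K7 difference was 1.54 ± 0.41 (SE; adjusted p = 0.00413 by limma). That difference lay in 2 MAP3K7 arrays, which were above all other arrays, while the other 4 were below the mean of the other arrays. MAP3K11 was different, since its 10 others lay between -1.16 (Cfap300) and 1.56 (Pdgfd), with 4 higher and 5 lower (2 and 5 with the block), where 25.0% and 29.3% of all tested genes were. The 4 neighbours were not uniform either: over the 76 arrays Mmp3 and Mmp13 had r = 0.629, Mmp3 and Mmp10 0.549, Mmp12 and Mmp13 0.454, and Mmp3 and Mmp12 0.235. In MAP3K11, Mmp13, Mmp12 and Mmp3 were higher and Mmp10 was not called.

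**Figure D5:**
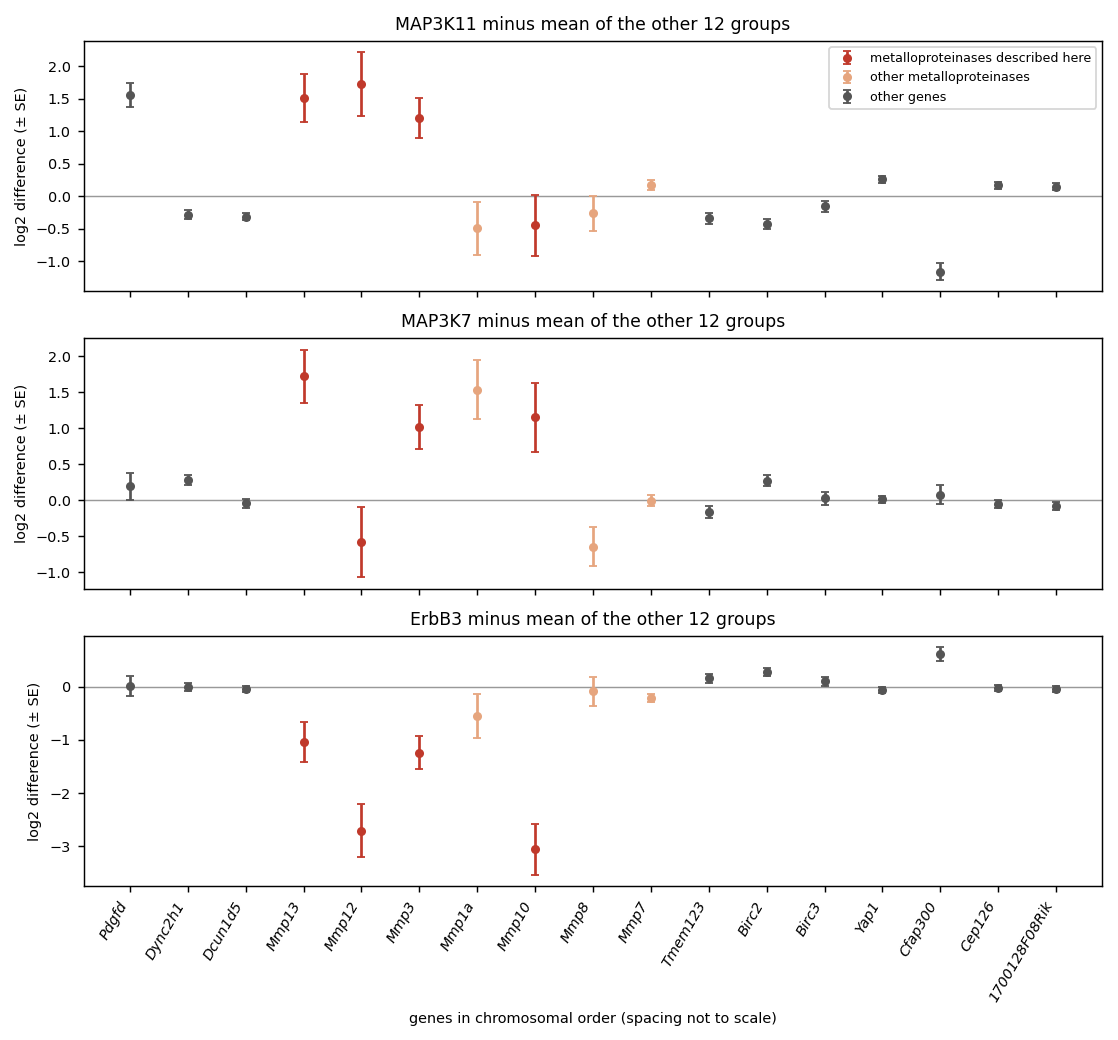
Log2 difference (± SE) between MAP3K11, MAP3K7 or ErbB3 and the mean of the other 12 groups on the vertical axes, for 17 tested genes in chromosomal order around the metalloproteinase cluster on chromosome 9. In ErbB3 the 4 genes described here lie between -3.05 and -1.04 while the 10 genes that are no metalloproteinases lie between -0.06 and 0.61; Mmp10 is at -0.45 in MAP3K11.

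Other genes of extracellular proteolysis were counted in MAP3K11 against the other 12 groups, from lists that named 15 more metalloproteinases, 6 more inhibitors, 12 activators and plasminogen genes and 14 ADAM and ADAMTS proteases. In this comparison 25.0% of all tested genes were higher and 29.3% lower. Of 8 tested metalloproteinases 4 were higher and 1 lower. Mmp23 was higher by 1.30 ± 0.22 (SE), Mmp19 by 0.49 ± 0.17 and Mmp17, anchored in the membrane, by 0.22 ± 0.07, and the membrane enzyme Mmp16 was lower by -1.67 ± 0.20. With the block only Mmp23 and Mmp16 were called. Among 5 tested inhibitors, 1 was higher, Tfpi2, an inhibitor of serine proteases such as plasmin, by 1.09 ± 0.21 (SE; adjusted p = 1.17e-05).

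The plasminogen system, whose plasmin can activate metalloproteinase precursors, had calls both ways. In MAP3K11, 5 of the 9 tested rose and 3 fell (4 and 1 with the block), where lower calls made up 29.3% of all tested genes. The urokinase receptor Plaur was higher by 1.08 ± 0.17 (SE) and the tissue activator Plat by 0.77 ± 0.12 (SE), whereas urokinase itself, Plau, was lower by -0.78 ± 0.31 (SE; adjusted p = 0.0279; 0.211 with the block) and the kallikrein Klk8 by -0.75 ± 0.29 (SE; adjusted p = 0.0242; 0.0892 with the block). Of 12 ADAM and ADAMTS genes 6 were higher and 3 lower (5 and 3 with the block), beside 25.0% and 29.3% of all tested genes. Adamts1, Adamts12 and Adamts5, secreted enzymes that cut proteoglycans or other matrix proteins, were higher by 1.08, 0.97 and 0.89, and the membrane protease Adam12 was lower by -0.94 (SE 0.16, 0.23, 0.22 and 0.19). The list medians were 0.06, 0.18, 0.18 and 0.21 in the order above, against -0.0146 for all tested genes.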

How the data were processed

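RNA was measured on 76 Affymetrix arrays. The labels' protocols give RNeasy extraction of total RNA and biotinylated cRNA as target. The only tool in the submitters' processing notes is affy, with no version. The deposited values are log2 expression from the authors, from 1.77 to 14.18. Array quartiles were close (lower 3.70 to 3.92, upper 7.60 to 7.81); the background correction and normalization are not given in the sources used here, and values were used as deposited. Of 45101 probe sets 34958 name 1 gene, 932 several and 9211 none. One probe set stood for each of 18194 genes, that of highest mean, and 13868 genes above the 40th percentile of the array in at least 4 arrays were tested. Names and positions came from the annotation of GRCm38.p6.

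One fit over all arrays by limma 3.58.1 (statmod 1.5.0, data.table package 1.17.8, R 4.3.3) had the introduced gene and T label as terms (61 residual degrees of freedom). Tests were two-sided, adjusted by Benjamini-Hochberg over all tested genes, and called at an adjusted p under 0.05. Differences are adjusted for the T label and can depart slightly from those of the means. Pairs were matched within groups on 19 autosome medians, with a within-pair correlation of 0.628. Replicate numbers of the titles do not pair arrays: blocks of T label and number had a correlation of 0.0011. The number of arrays limits the precision.

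Named are all members, up to 4 called genes of each protease list with the largest difference in MAP3K11, and the 3 genes closest to each member over the 13 group means. Markers and neighbours on chromosome 9 named besides were chosen after their values were seen. Members, lists, tests and alternatives were chosen with earlier results of these data known. The fit was tested on simulated data. Alternatives changed 1 choice at a time. The gene that the series title names is left out.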

Additional observations from a re-analysis of the deposited data

Results flagged for a closer look

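Of 130 groups of values (10 genes in 13 groups) 4 held an array far from the others of its group by Dixon's test, where chance gives about 1 in 20. Mmp3 in the ErbB3 array T3 replicate 2 was at 10.59, and the next highest ErbB3 array was at 8.94. Mmp11 in the TNK2 array T1 replicate 3 was at 6.89, and the next lowest was at 7.18. Mmp12 in the RON+MSP array T2 replicate 1 was at 8.28, below 9.28 in the next array. Mmp13 in the RONd160 array T3 replicate 2 was at 10.93, above 10.25 in the next. In Mmp3 the outlying ErbB3 array had a paired array (T1 replicate 2) at 8.56.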

How the results depend on the processing

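With the pairs of arrays as a block, 12 calls were left of the 26 among the 12 groups other than MAP3K11, and 1 of 3 in MAP3K11 against MAP3K7. At an adjusted p under 0.01 the 26 became 16. Array weights gave 5 calls in MAP3K11 against MAP3K7 and leaving out the 2 MAP3K7 arrays gave 6. For these 2 fits the share of all tested genes called is not given. A fit on only the groups compared lost Timp1 in MAP3K11 against MAP3K7 and Mmp9 and Mmp10 in MAP3K7 against HER2. With the fibroblast mean as a covariate there were 14 calls among the 12 groups, 3 of 7 in MAP3K11 against HER2 and 2 of 9 in MAP3K7 against HER2. With the osteoclast mean, added after seeing the data, 4 of 7 were left in MAP3K11 against the other groups, and Mmp2 was at 0.58 (adjusted p = 0.0593), Mmp9 at 0.22 (0.572) and Timp1 at 0.22 (0.137). With the macrophage mean Mmp10 was lower in MAP3K11 (-1.19, adjusted p = 0.0223). The cause of these changes was not tested. With the title number as a replicate block, fixed or random, 0 of the 70 gene results changed, and all 7 calls of MAP3K11 against the other groups were made. Signs turned in results that had not been called, except Timp3 in MAP3K11 against HER2 (-0.0659 with the fibroblast mean). For MAP3K11 against the other groups Timp3 turned to -0.15 (mean of probe sets), -0.0299 (array weights), -0.51 (fibroblast mean, adjusted p = 0.0465) and -0.14 (muscle mean), and Mmp11 to -0.20 (fibroblast) and -0.014 (muscle). Mmp10 in MAP3K11 against HER2 turned to -0.0454 (weights) and -0.32 (osteoclast mean). In MAP3K11 against MAP3K7, Mmp2 and Mmp13 turned to 0.084 and 0.0751 without the 2 arrays, and Mmp3 and Mmp9 to -0.37 and -0.0726 (macrophage mean). Mmp9 in MAP3K7 against the rest turned to -0.39 without the 2 arrays and -0.44 (osteoclast mean). In ErbB3 against the rest Mmp2 turned to -0.28 (fibroblast), Mmp11 to -0.005 (weights), -0.14 (fibroblast), -0.12 (macrophage) and -0.0206 (osteoclast), and Mmp14 to 0.026 (osteoclast). Leaving out each array in turn gave 10 of 10 calls for the F test, 7 of 10 in MAP3K11 both against the other groups and against HER2, 23 to 29 among the 12 groups, 2 to 4 in MAP3K11 against MAP3K7, 6 to 9 in MAP3K7 against HER2 and 0 for the T labels. Without 1 array, signs turned in Timp3 (-0.0588 to 0.12) in MAP3K11 against the rest, Mmp3 (-0.0811 to 0.32) against MAP3K7, Mmp10 (-0.0009 to 0.53) against HER2, and in ErbB3 Mmp2 (-0.044 to 0.33), Mmp11 (-0.0405 to 0.15) and Mmp14 (-0.15 to 0.0122). No filter, a filter at the 60th percentile, quantile normalization, median centring and leaving out the T term changed 0 of the 70. Of called genes 46.0% were higher in MAP3K11 as deposited, 52.4% with quantile normalization and 42.1% with centred medians. The array-weights fit stopped before it converged.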
